A study of Macaca mulatta with 30 samples.

Results

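The genes described here are a list of 42 genes of the primary cilium, chosen by symbol: DZIP1 and its relative DZIP1L, TMEM107 and other transition zone genes, the intraflagellar transport genes, the Bardet-Biedl syndrome genes and the motor gene KIF3A. Of the 42 symbols, 39 have a row among the 15521 genes of the table, and TMEM67, TMEM237 and CEP290 have none. The samples are cortical area 32, a medial prefrontal region, from 30 male rhesus macaques (Macaca mulatta), 1 RNA library per animal. Every animal had been naive to experiments, was induced to drink ethanol at 4% and then drank by choice for over 12 months with 22 hours of access a day, so the low drinkers are drinkers too and no alcohol-free animals are among the samples. Very heavy drinkers (VHD, n = 6) took more than 3 g/kg a day on average and more than 4 g/kg on at least 10% of days. Heavy drinkers (HD, n = 7) took at least 3 g/kg on 20% or more of days. Binge drinkers (BD, n = 7) took at least 2 g/kg on 55% or more of days and reached a blood ethanol of 80 mg/dl at least yearly. Low drinkers (LD, n = 10) met none of these definitions. Cohort 4 held 9 of the animals, with a mean age of 9.98 years after drinking. Cohort 5 held 8 (7.15 years), cohort 7a held 8 (5.7 years) and cohort 7b held 5 (7.18 years).

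The primary cilium is a single, non-motile projection of the cell surface, carried by most neurons and astrocytes of the cortex, that holds receptors and signalling enzymes at high concentration. The transition zone at its base acts as a gate, intraflagellar transport (IFT) trains carry cargo to the tip and back, and the BBSome is a coat that moves membrane proteins out of the cilium. In neurons it is known for somatostatin and serotonin receptors and for a type of adenylyl cyclase, and during development for hedgehog signalling.

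VHD animals came only from cohorts 5 (4 animals) and 7a (2 animals), and LD animals from cohorts 4 (4), 7a (3) and 7b (3), so VHD and LD met in cohort 7a alone. The libraries held 4.39 to 13.99 M reads within measured exons. The 8 libraries whose titles end in the numbers 1 to 8 stood apart in TMEM107 and in many other genes. They came from 2 VHD, 4 HD, 1 BD and 1 LD animals, and none was from cohort 4. The labels do not say what the number stands for. Of 14 markers of motile cilia and ependyma with a row, 12 passed the filter. The summed level of all 14 was 1306 to 1978 normalized reads in LD and 1373 to 1585 in VHD. The medians of the 14 markers ran from 2.58 normalized reads for DNAI2 and 4.73 for FOXJ1, the regulator of motile cilia, to 633 for WDR96, and DNAI2 was at 0 in 4 libraries. The neuronal gene SNAP25 and the astrocyte gene GFAP were read in all 30 libraries.

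A gene was tested when 6 or more libraries had 10 or more normalized reads, which held for all 39 cilium genes and for 12935 genes in all. Levels are given as normalized reads, the authors' counts scaled to a common upper quartile, and are compared between genes only per kilobase of measured exon. The median cilium gene was at 129 normalized reads per kilobase, against 102 for all tested genes, both from the mean of each gene over the libraries. The values of single genes that follow are medians over the libraries. KIF3A, a subunit of the kinesin-2 motor that drives trains outward, was highest at 508 normalized reads per kilobase. DZIP1, a zinc finger protein of the basal body that is needed for cilium assembly and hedgehog signalling, followed at 409. DZIP1L, its relative at the same site, was lowest at 11.4, and its 11.1 to 73.9 normalized reads per library rested on 9 to 74 recovered reads. The 2 relatives thus stood near opposite ends of the list.

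**Figure D1:**
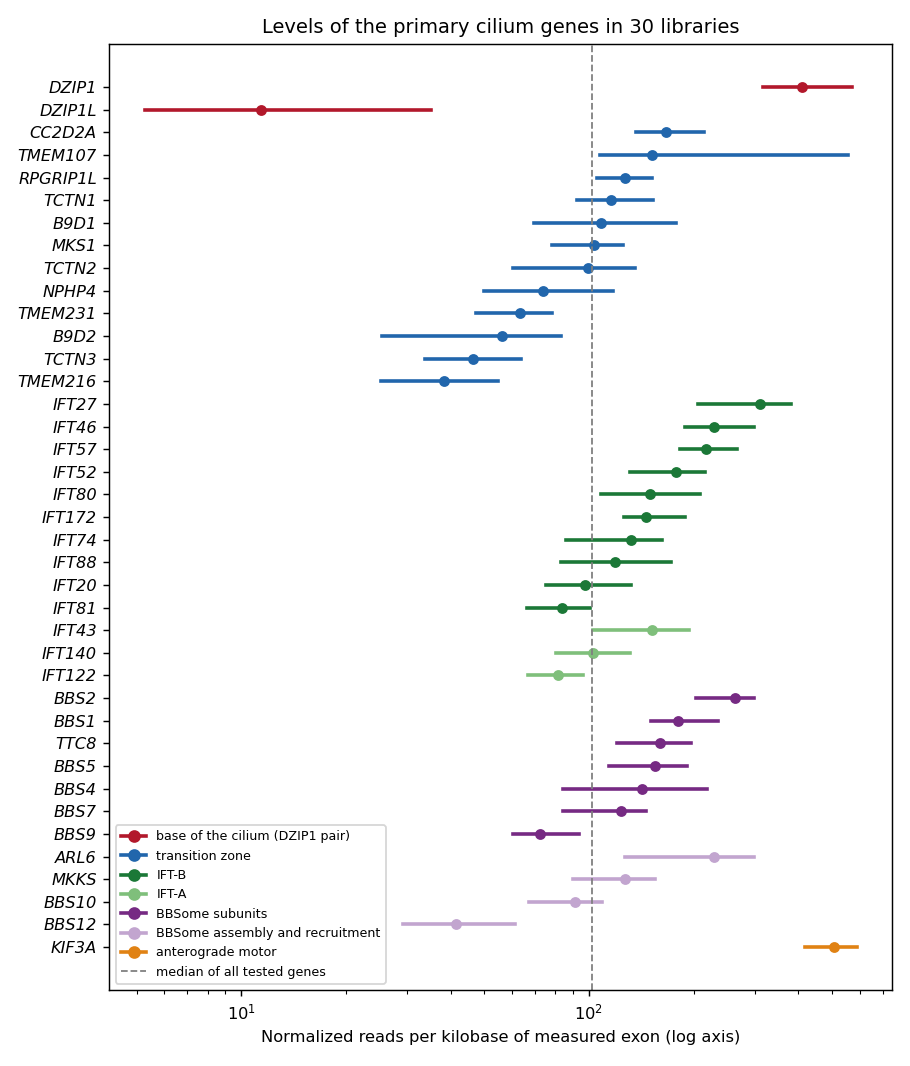
Normalized reads per kilobase of measured exon (log axis) for the 39 cilium genes, grouped by role, in 30 libraries. Points are medians and bars run from the lowest to the highest library. The dashed line is the median of all tested genes, from the mean of each gene over the libraries. DZIP1L lies far left of DZIP1, and TMEM107 has the longest bar among the genes above the dashed line.

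Among 12 transition zone genes, CC2D2A, a scaffold of the tectonic complex, was highest per length at 167 normalized reads per kilobase, and TMEM216, a membrane protein of the same gate, was lowest at 38.3. The 3 tectonic genes TCTN1, TCTN2 and TCTN3 stood at 116, 99.2 and 46.5 per kilobase. The B9 domain genes B9D1, B9D2 and MKS1, whose products bind each other, stood at 108, 56.1 and 104. The IFT-B genes, which encode the anterograde train, ranged from 83.4 for IFT81, which binds tubulin together with IFT74, to 311 for IFT27, a small GTPase of the train. The IFT-A genes of the retrograde train stood at 152 for IFT43, 102 for IFT140 and 81.7 for IFT122. Of 7 BBSome subunits, BBS2 was highest at 264 and BBS9 lowest at 72.3. ARL6, the GTPase that recruits the BBSome to membranes, stood at 228, while the chaperonin-like assembly factors MKKS, BBS10 and BBS12 stood at 127, 90.9 and 41.5. Genes of every role were thus measured in this tissue, with IFT-B and BBSome genes mostly above the median gene and the transition zone on both sides of it.

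As a group, the cilium genes varied between animals about as much as genes at large. Their median coefficient of variation over the 30 libraries was 13.3%, against 14.9% for all tested genes. BBS2 varied least, at 8.46%, and KIF3A next, at 9.01%. The widest spreads were 64.2% for TMEM107 and 50.1% for DZIP1L. Counting alone would give 20.1% for DZIP1L but only 6.28% for TMEM107 and 2.37% for DZIP1, whose observed value was 15.8%. In all 39 genes the observed value lay above that from counting alone, but in IFT20 only at 13.5% against 12.3%. These gaps were not tested.

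The comparison of very heavy with low drinkers sets the ends of the intake scale against each other. No cilium gene passed in it. With limma, on log2 of the normalized reads plus 1 with cohort as a term and adjustment over all genes, 0 of 39 cilium genes and 0 of 12935 genes (0%) had an adjusted p under 0.05, and edgeR on recovered reads also gave 0 of 39. At an unadjusted p under 0.05, 5 of 39 cilium genes were counted, beside 453 of all genes (3.5%). Of these, 3 were higher, beside 1.76% of all genes, and 2 were lower, beside 1.74%. The median difference of the 39 genes was 0.06 log2 units, against -0.00033 for all genes. It was 0.02 without LD replicate 2, and the median over the 39 genes had an SD of 0.06 between libraries within a category.

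DZIP1 had the smallest p of any tested gene in this comparison. The cilium genes were chosen with earlier results of these data known, so this rank serves as a description. Its level ran from 2140 to 2711 normalized reads in VHD, with a median of 2319, and from 1509 to 2266 in LD, with a median of 1667. The groups overlapped in 2 LD animals, both from cohort 4, that lay above the lowest VHD animals. The 4 VHD animals of cohort 5 had 2619, 2329, 2140 and 2711 normalized reads of DZIP1, and the 2 of cohort 7a had 2255 and 2310. In LD, the cohort 4 animals had 1667, 2266, 2258 and 2139, those of cohort 7a had 1509, 1649 and 1668, and those of cohort 7b had 1540, 1536 and 1741. In cohort 7a, where both categories were present, the 2 VHD animals lay above the 3 LD animals. Over all animals no cilium gene had VHD and LD groups without overlap (0 of 39), beside 3 genes in all (0.0232%). BD ran from 1689 to 2097 and HD from 1713 to 2200, so all VHD animals lay above all BD animals, while the ranges of HD and VHD overlapped. The VHD minus LD difference of DZIP1, higher in VHD, was 0.42 ± 0.09 log2 units (SE, unadjusted p = 0.000108, adjusted p = 0.948). Within cohort 7a alone the difference was 0.51. In the same comparison all 10 mural cell and fibroblast markers had estimates below 0 (median -0.29) and 9 of 10 oligodendrocyte markers above 0 (median 0.22), with 0 of either list at an unadjusted p under 0.05, and their part in the DZIP1 estimate was not tested. The gene was read from 23 exons on chromosome 13 (76944342 to 77007970, positions as the exon names give them, on a genome build that the sources used here do not give). All 23 lay above 0 in VHD minus LD, from 0.25 to 0.89 log2 units. The difference in the gene was thus not carried by a single exon.

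**Figure D2:**
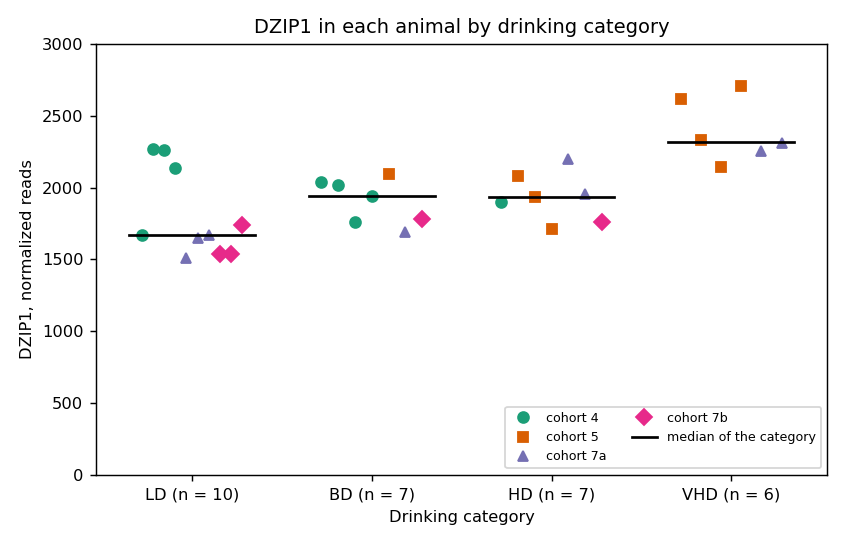
DZIP1 in normalized reads (vertical axis, from 0) for each of the 30 animals by drinking category; symbols and colours mark the cohort and black lines the category median. The 6 VHD animals lie between 2140 and 2711, and 3 of the 4 LD animals of cohort 4 lie above every other LD animal.

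DZIP1L had the same estimate, 0.42 ± 0.37 log2 units, with an unadjusted p of 0.274. Its VHD animals spanned 12.5 to 53.0 normalized reads and its LD animals 14.7 to 44.1, so nothing can be read from that likeness at this depth. Among transition zone genes, CC2D2A was at 720 to 922 normalized reads in VHD (median 804) and 758 to 1123 in LD (median 944). The groups overlapped, and the difference was -0.29 ± 0.10 log2 units (unadjusted p = 0.00546). B9D1 was at 78.8 to 107 normalized reads in VHD (median 88.9) and 74.5 to 130 in LD (median 105), with a difference of -0.47 ± 0.19. Its partners MKS1 and B9D2 had differences of -0.20 ± 0.12 and -0.30 ± 0.22, so the estimates of the 3 B9 genes were all below 0, with none past adjustment. Within cohort 7a, where both categories were present, B9D2 was at 0.01. RPGRIP1L, a scaffold of the gate, was at 0.09 ± 0.10. TMEM107, described by library further on, was at 0.43 ± 0.40, and at 0.08 with a term for libraries 1 to 8.

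BBS5, a BBSome subunit that binds membrane lipids, was at 191 to 233 normalized reads in VHD and 152 to 226 in LD, a difference of 0.28 ± 0.13 log2 units. BBS7, which forms the core of the BBSome with BBS2 and BBS9, was at 460 to 516 in VHD and 319 to 551 in LD, a difference of 0.24 ± 0.11. All VHD animals lay above the LD median in both genes, and the groups overlapped in both. IFT80 of the IFT-B train differed by 0.23 ± 0.13 and KIF3A by 0.14 ± 0.08. The 3 IFT-A genes had estimates below 0 (median -0.10) and the 4 assembly and recruitment genes above 0 (median 0.08), with 0 of either group at an unadjusted p under 0.05. Of the genes named one by one in VHD minus LD, each had an adjusted p of 0.948. Single libraries moved uncalled estimates: MKS1 was at -0.12 without VHD replicate 5, IFT80 at 0.15 without BD replicate 6, and TMEM107 at 0.22 without VHD replicate 2 and 0.69 without VHD replicate 5. In bulk tissue, fewer cells of a type and less RNA per cell cannot be told apart.

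Heavy and binge drinkers were compared with the same LD animals, so the differences share their controls and are only set side by side. In HD minus LD, limma called 0 of 39 cilium genes (0% of all genes) and edgeR 0. Before adjustment 3 of 39 had p under 0.05, beside 1623 of 12935 genes (12.5%). Of these, 2 were higher (5.87% of all genes) and 1 lower (6.68%). The count ran from 1 without HD replicate 1 to 8 without HD replicate 6, so it says little about the cilium genes against genes at large. TMEM107, a membrane protein of the transition zone, had 189 to 735 normalized reads in HD (median 552) and 160 to 600 in LD (median 195). The difference was 0.95 ± 0.34 log2 units (unadjusted p = 0.00893, adjusted p = 0.317). With a term for libraries 1 to 8 it was 0.23, and with the longest exon of the gene left out it was -0.03. Hence the estimate for this gene moved with the set of libraries, of which 4 of 7 HD but 1 of 10 LD animals were part.

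KIF3A was at 3024 to 3505 normalized reads in HD and 2824 to 3589 in LD, a difference of 0.15 ± 0.07 log2 units. RPGRIP1L and IFT74 differed by 0.15 ± 0.08 and 0.19 ± 0.10. Lower estimates were those of MKS1 (-0.22 ± 0.10), NPHP4, a nephrocystin of the gate (-0.26 ± 0.13), B9D1 (-0.30 ± 0.16) and CC2D2A (-0.14 ± 0.08). All 7 overlapped between HD and LD, and their adjusted p lay between 0.382 and 0.473. DZIP1 differed by 0.12 ± 0.08. Left-out libraries moved B9D1 to -0.14 (without HD replicate 3), NPHP4 to -0.16 (without HD replicate 7) and DZIP1 to 0.06 (without HD replicate 4). Markers of mural cells and fibroblasts moved in the same comparison: 7 of 10 were lower in HD at an unadjusted p under 0.05, beside 6.68% of all genes. The summed level of these markers was 2647 to 7460 normalized reads in HD and 3400 to 6827 in LD. Their part in the cilium estimates was not tested.

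In BD minus LD, limma and edgeR called 0 of 39 cilium genes (0% of all genes). Of the 39, 2 had an unadjusted p under 0.05, beside 394 of all genes (3.05%), 1 of them higher (1.56% of all genes) and 1 lower (1.48%). DZIP1L was 1 of them, at 23.3 to 73.9 normalized reads in BD (median 34.0) against 14.7 to 44.1 in LD (median 21.3). Its groups overlapped, and the difference was 0.68 ± 0.29 log2 units (adjusted p = 0.999). Leaving out single libraries lowered it at most to 0.54, without BD replicate 6. The other was IFT88, an IFT-B subunit without which cilia do not form, at 245 to 422 normalized reads in BD and 319 to 442 in LD. Its difference was -0.24 ± 0.12. IFT52, CC2D2A and IFT122 had differences of -0.14 ± 0.08, -0.14 ± 0.08 and -0.11 ± 0.07. Above 0 stood RPGRIP1L (0.05), TCTN1 (0.07) and DZIP1 (0.04 ± 0.07). TMEM107 was at 0.23 ± 0.32 and fell to -0.09 without BD replicate 1, the only BD library among numbers 1 to 8. IFT52 was at -0.06 without BD replicate 4 and IFT122 at -0.06 without BD replicate 1, and the estimates of DZIP1, RPGRIP1L and TCTN1 came to 0.02 or less without single libraries (LD replicate 3 or BD replicate 6).

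**Figure D3:**
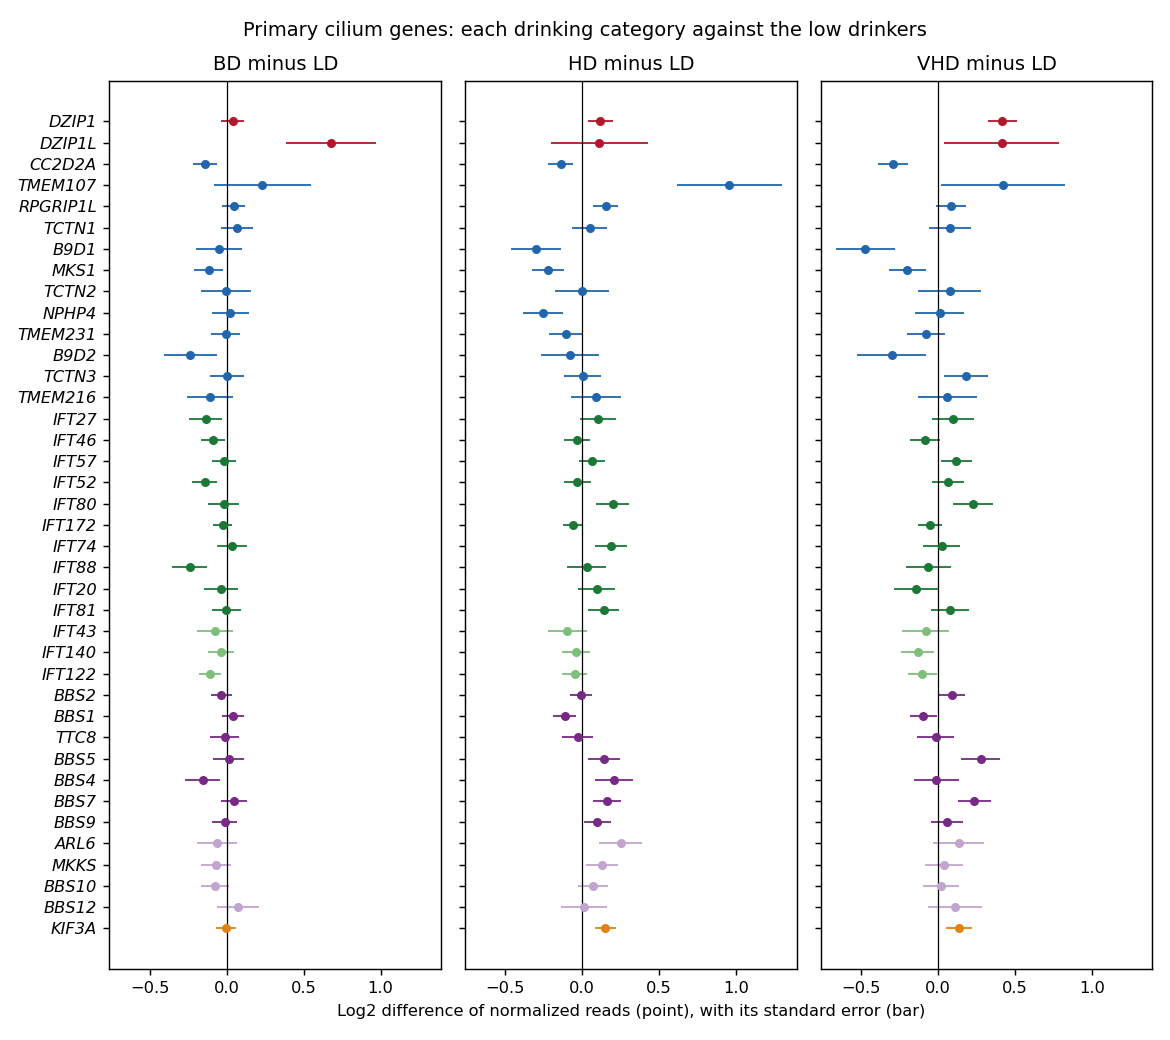
Log2 difference of normalized reads from the low drinkers (points, with standard errors as bars) for the 39 cilium genes in binge, heavy and very heavy drinkers; colours mark roles as in the plot of levels. DZIP1 lies at 0.04, 0.12 and 0.42 from left to right, and TMEM107 stands apart at 0.95 in HD.

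Across all 4 categories the picture was the same. In the test for any difference between categories, 0 of 39 cilium genes (0% of all genes) passed with limma and 0 with edgeR, and 2 of 39 had an unadjusted p under 0.05, beside 5.62% of all genes. The smallest were DZIP1 (unadjusted p = 0.000801, adjusted p = 0.861) and CC2D2A (0.0365), followed by BBS4 (0.0548), a BBSome subunit also found at centriolar satellites, and TMEM107 (0.06). BBS4 was at 325 to 456 normalized reads in HD and 238 to 351 in BD, so those categories overlapped as well. In a trend with equal steps from LD through BD and HD to VHD, again 0 of 39 (0% of all genes) passed with either tool and 5 of 39 were counted at an unadjusted p under 0.05, beside 6.18%. Of the 5, 3 had slopes above 0 (3.12% of all genes) and 2 below 0 (3.06%). DZIP1 had a slope of 0.12 ± 0.03 log2 units per step (unadjusted p = 0.000743, adjusted p = 0.745), and its 23 exons all had slopes above 0. BBS7, BBS5 and KIF3A had slopes of 0.08 ± 0.03, 0.09 ± 0.04 and 0.05 ± 0.03. CC2D2A, B9D1 and MKS1 had slopes of -0.09 ± 0.03, -0.16 ± 0.06 and -0.08 ± 0.04, and BBS1 was at -0.04 ± 0.03. TMEM107 had a slope of 0.23 ± 0.14, which was 0.04 with a term for libraries 1 to 8. The test of whether slopes differ between cohorts gave DZIP1 an unadjusted p of 0.0283 and an adjusted p of 0.9998.

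The cohorts differ in age and in their mix of categories, so cohort was tested with drinking category as a term. For any difference between cohorts, limma and edgeR called 0 of 39 cilium genes (0% of all genes), and 4 of 39 had an unadjusted p under 0.05, beside 8.04% of all genes. These were IFT172, a large peripheral subunit of IFT-B (unadjusted p = 0.00463), BBS4 (0.00756), DZIP1 (0.0172) and ARL6 (0.0457). TMEM107 was at 0.223.

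IFT172 was at 758 to 1014 normalized reads in cohort 4 (median 892), 674 to 786 in cohort 5, 685 to 815 in cohort 7a (median 740) and 685 to 862 in cohort 7b. Of the 9 cohort 4 animals, 7 lay above every animal of the other cohorts. Cohort 4, the oldest, minus cohort 7a, the youngest, was 0.24 ± 0.06 log2 units (unadjusted p = 0.000735, adjusted p = 0.164). Without the term for drinking category it was 0.25, with an adjusted p of 0.0472, the only setting that put it past the threshold. In this contrast 0 of 39 cilium genes (0% of all genes) passed with limma and 0 with edgeR, and 4 of 39 were counted at an unadjusted p under 0.05, beside 9.15%, 3 of them higher (4.94%) and 1 lower (4.21%).

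DZIP1 was at 0.19 ± 0.08 log2 units in this contrast. IFT52, a subunit of the IFT-B core, was at 0.18 ± 0.08 and BBS4 at 0.24 ± 0.12. The chaperonin-like BBS10 was at -0.23 ± 0.09, with 151 to 224 normalized reads in cohort 4 and 196 to 238 in cohort 7a. ARL6, IFT43 and IFT57 were at -0.21 ± 0.13, -0.19 ± 0.12 and -0.11 ± 0.08. TMEM107 was at -0.39 ± 0.33 at -0.01 without BD replicate 1 and at 0.08 with a term for libraries 1 to 8. BBS4 was at 0.14 without LD replicate 2 and IFT57 at -0.07 without BD replicate 1. Oligodendrocyte markers moved in this contrast: 9 of 10 were higher in cohort 4 at an unadjusted p under 0.05, beside 4.94% of all genes. The summed level of these markers was 4491 to 21764 normalized reads in cohort 4 and 4209 to 7196 in cohort 7a. Their part in the cilium estimates was not tested.

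The libraries numbered 1 to 8 were compared with the other 22 in a model with category and cohort. The split was part of the choice of genes, made with earlier results of these data known, so its values serve as a description. TMEM107 was higher by 1.58 ± 0.10 log2 units, KIF3A was higher by 0.17 ± 0.05 and BBS1, a BBSome subunit that binds ARL6, was lower by 0.19 (difference -0.19 ± 0.06). With limma, these 3 of 39 cilium genes had an adjusted p under 0.05 (3.5e-12, 0.0315 and 0.0202), beside 2010 of 12935 genes (15.5%). The 2 higher stand beside 6.36% of all genes called higher and the 1 lower beside 9.18% called lower. The edgeR count was also 3 of 39, for which the share of all genes is not given here. Before adjustment there were 7 of 39 with p under 0.05, beside 28.9% of all genes, 4 higher (13.2%) and 3 lower (15.7%). With a depth term the counts were 8 and 17 of 39. Leaving out single libraries gave 1 (without LD replicate 1) to 5 (without VHD replicate 5) adjusted calls. The shares of all genes under these settings are not given here, so these counts do not set the cilium genes against genes at large.

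KIF3A was at 3096 to 3662 normalized reads in libraries 1 to 8 (median 3453) and 2602 to 3561 in the rest (median 3074). BBS1 was at 495 to 629 (median 532) and 552 to 772 (median 622). The sets overlapped in both genes. The KIF3A call was lost without VHD replicate 1, HD replicate 1, BD replicate 1 or LD replicate 1 (adjusted p of 0.112, 0.0511, 0.126 and 0.106). The BBS1 call was lost without BD replicate 1 or LD replicate 1 (0.0973 and 0.0882). Short of the threshold were RPGRIP1L (0.18 ± 0.06 log2 units, adjusted p = 0.0556), IFT80 (0.23 ± 0.09, 0.0732), MKS1 (-0.21 ± 0.08, 0.083), IFT172 (-0.11 ± 0.05, 0.172) and B9D2 (-0.27 ± 0.16, 0.268). RPGRIP1L passed under 5 other settings and on leaving out any 1 of 6 libraries, IFT80 under 4 settings and any 1 of 2 libraries, MKS1 under 2 settings and any 1 of 2 libraries, and IFT172 with a depth term. IFT80 was at 0.14 and IFT172 at -0.07 without LD replicate 1. DZIP1 was at 0.05 ± 0.07. Some markers of other cells had adjusted calls too. Called lower were 2 of 9 microglia, 2 of 9 astrocyte, 2 of 10 mural cell and fibroblast and 1 of 7 endothelial markers, beside 9.18% of all genes. Of 9 neuronal markers, 1 was called higher, beside 6.36% of all genes, and 1 lower. The summed microglia markers ran from 1187 to 1571 normalized reads in libraries 1 to 8 and from 1295 to 1932 in the rest, those of astrocytes from 79600 to 101859 and 79174 to 104899. The sums of mural cell and fibroblast markers ran from 2647 to 6530 and 3218 to 7460, and those of endothelial markers from 2330 to 2823 and 2022 to 3591. All 4 sums overlapped, and their part in the cilium values was not tested.

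TMEM107 was the only cilium gene whose sets did not overlap, beside 70 such genes in all (0.541%). It had the smallest p of all 12935 genes in this comparison. Its levels in libraries 1 to 8, in order of number, were 560, 552, 672, 651, 430, 735, 653 and 599.9 normalized reads, and those in the other 22 ran from 142 to 234. The 8 libraries were thus higher than every other library in each of the 4 categories. They hold 430 and 560 in VHD, 552, 653, 672 and 735 in HD, 651 in BD and 599.9 in LD. The highest of the other libraries, VHD replicate 3, had 234.

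The gene value is a sum over 5 exons, between positions 8107468 and 8110418 of chromosome 17 as the exon names give them. The longest exon has 857 bases (8107468 to 8108324) and the other 4 sum to 469 bases. In libraries 1 to 8 the longest exon held 518, 487, 628, 592, 379, 641, 572 and 544 normalized reads, with a median of 558. In the other 22 it held 78.5 to 154, with a median of 113, a ratio of medians of 4.95. Library 8 stood at 544 and library 9, the next number, at 149. Among libraries 9 and up the categories overlapped throughout, at 87.9 to 125 in LD (n = 9), 78.5 to 154 in BD (n = 6), 112 to 149 in HD (n = 3) and 100.1 to 142 in VHD (n = 4). The longest exon therefore separates the sets with no library in between.

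The other 4 exons went the opposite way. Summed, they held 31.9 to 78.4 normalized reads in libraries 1 to 8 (median 51.5) and 35.8 to 99.3 in the rest (median 75.5), a ratio of medians of 0.683. The longest exon took 87.95% to 95.2% of the gene's reads in libraries 1 to 8 and 49.7% to 78.1% in the rest, again with no overlap. Per kilobase, the longest exon stood at 651 against 132 normalized reads, and the other exons at 110 against 161. By these medians, both parts of the gene had like levels per length in the rest. In libraries 1 to 8 the longest exon stood far above the other exons. Single libraries of the rest departed from this: the longest exon took 78.1% in library 9 and 74.0% in library 11, against a median of 60.4%.

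Exon by exon, with 1 variance per exon and adjustment over 119940 exons, the longest exon was 2.14 ± 0.11 log2 units higher in libraries 1 to 8 (adjusted p = 6.47e-15). In order of position the others were at -0.72 ± 0.26 (adjusted p = 0.0866), -0.75 ± 0.22 (0.0264), -0.45 ± 0.20 (0.162) and -0.31 ± 0.26 (0.547). Their median levels in the 30 libraries were only 13.4 to 21.7 normalized reads, which limits their precision. As a share of the gene, on a log2 scale against its other exons, the longest exon was 2.70 ± 0.23 higher. With the longest exon left out, TMEM107 as a gene was at -0.54 (adjusted p = 0.0464). Its category and cohort differences without that exon were 0.10 for VHD, -0.03 for HD and -0.15 for BD minus LD, and 0.15 for cohort 4 minus 7a.

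In the human genome a small nucleolar RNA gene, SNORD118, lies within the transcribed end of TMEM107. Reads from overlapping genes cannot be told apart in exon sums. Which transcript the reads of the longest exon came from is therefore uncertain. The library kit keeps strand, and the sources do not say whether counting used it.

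**Figure D4:**
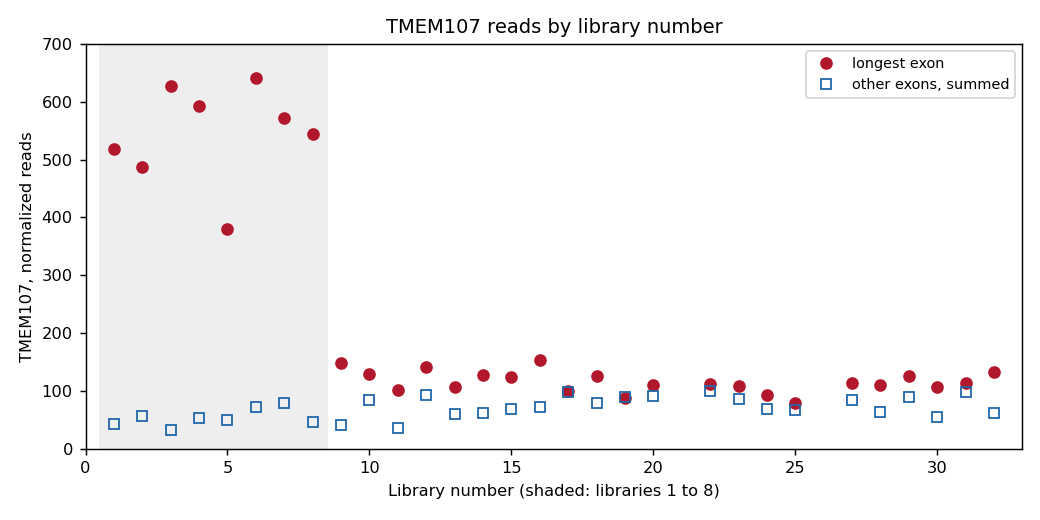
TMEM107 reads by library number in normalized reads (vertical axis, from 0): filled circles are the longest exon and open squares the sum of the other 4 exons, with libraries 1 to 8 shaded. The longest exon stands at 379 to 641 in the shaded libraries and at 78.5 to 154 elsewhere, while the other exons stay between 31.9 and 99.3 throughout.

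**Figure D5:**
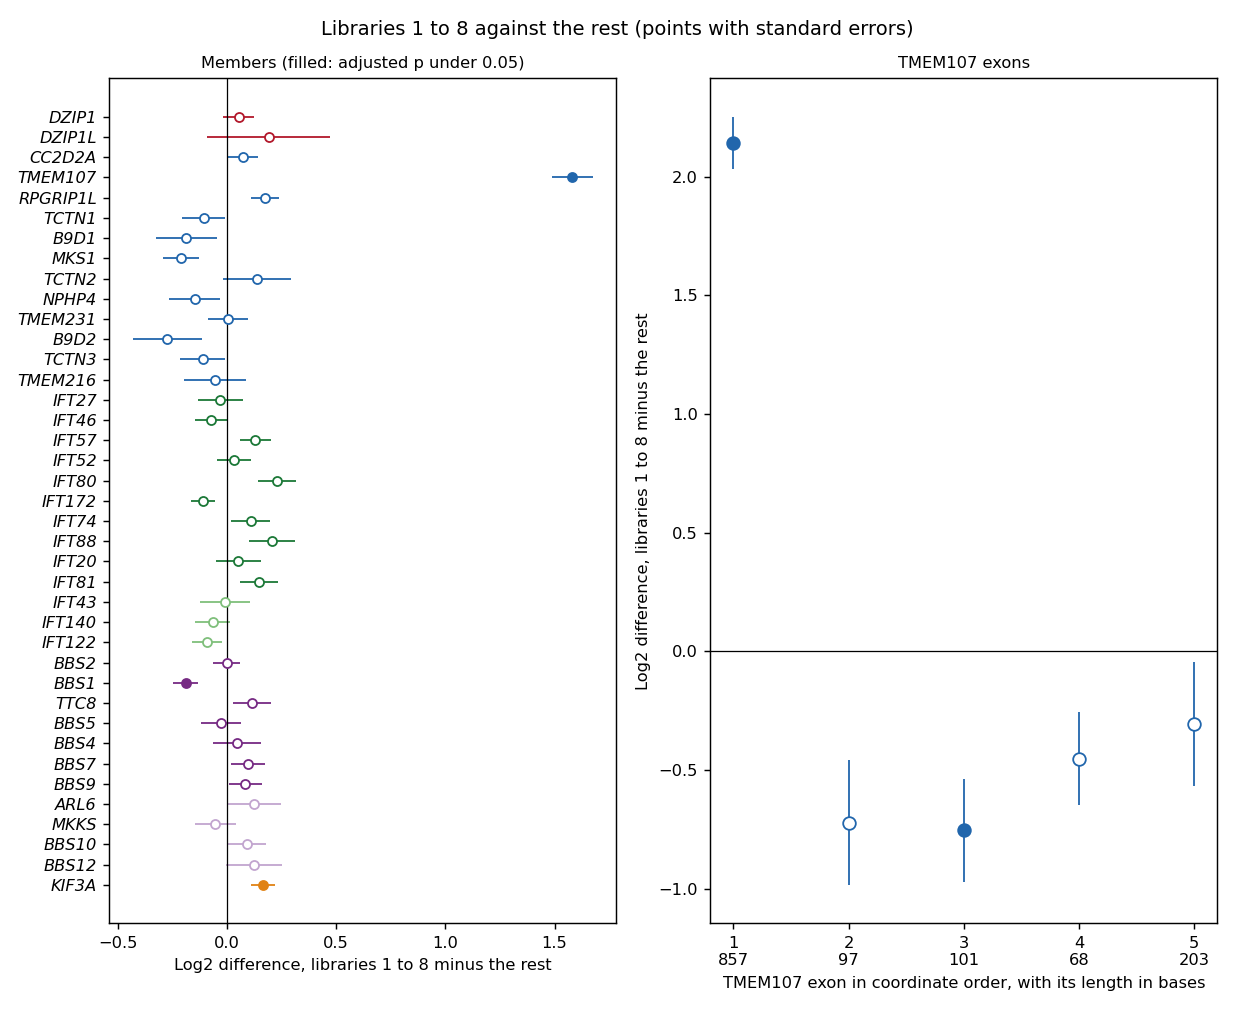
Log2 difference of libraries 1 to 8 minus the rest with standard errors: on the left for the 39 cilium genes, on the right for the 5 TMEM107 exons in coordinate order with their lengths. Filled points have an adjusted p under 0.05; TMEM107 lies at 1.58, and among its exons only that of 857 bases lies above 0.

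Among the 598 tested exons of the cilium genes, 17 in 13 genes had an adjusted p under 0.05 in libraries 1 to 8 against the rest (2.84% of these exons, beside 7.82% of all exons), 10 higher and 7 lower. In each category and cohort comparison limma called 0 of the 598, beside 0% of all exons. Exons were tested where 6 or more libraries had 5 or more normalized reads. The next 3 exons reached that mainly through libraries 1 to 8, where they are high, so their values are given as a description and the calls on them support nothing. BBS1, though lower as a gene, had an exon of 59 bases at the end of its exon order that held 4.01 to 16.7 normalized reads in libraries 1 to 8 and 0 to 6.01 in the rest. The last exon in order of IFT46, another IFT-B subunit, held 5.89 to 15.02 against 0 to 5.18. The first exon in order of IFT43 held 3.20 to 13.7 against 0 to 5.82. These are levels of a few reads per library, in exons at an edge of the gene.

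KIF3A exons 16 and 17 in order, the last in position, were 0.37 ± 0.07 and 0.66 ± 0.13 log2 units higher, with medians of 299.9 against 239 and of 59.9 against 38.2 normalized reads. An exon of 251 bases in DZIP1 was lower by 0.56 (difference -0.56 ± 0.12), at 33.9 to 57.5 against 41.1 to 91.0, while the gene as a whole was close to 0. Of the first and last exons of cilium genes in coordinate order, 7 of 70 were called (10%), and of the exons between them 10 of 528 (1.89%). In all genes the shares were 11.9% of 20342 and 6.99% of 99044 exons. This split was made after the values were seen, and the 7 include the 3 exons of BBS1, IFT46 and IFT43 that the filter favoured.

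The wider cilium list held 83 other genes with a row, of which 82 were tested: further transition zone, IFT and motor, BBSome partner, basal body, hedgehog and ciliary receptor genes. With limma, 0 of 82 passed in any category or cohort comparison. Before adjustment 5 of 82 had p under 0.05 in VHD minus LD (1 higher, 4 lower), 8 in HD minus LD (3 higher, 5 lower) and 4 in BD minus LD. Among all genes these shares were 3.5% (1.76% higher, 1.74% lower), 12.5% (5.87% and 6.68%) and 3.05%. In VHD minus LD the smallest were CBY1, a basal body protein (-0.34 ± 0.14 log2 units), GAS1, a hedgehog co-receptor (0.31 ± 0.13), and KIF7, a kinesin of the hedgehog pathway (-0.32 ± 0.15). GAS1 was at 0.32 ± 0.11 in HD minus LD, beside PDE6D, a carrier of lipid-linked proteins (0.29 ± 0.10), and the polycystin PKD1 (-0.33 ± 0.14). In BD minus LD they were DYNC2LI1, a light chain of the retrograde dynein (-0.30 ± 0.09), the neuropeptide Y receptor NPY2R (-0.68 ± 0.24) and PDE6D (0.26 ± 0.09). The adjusted p was 0.317 or more for each of them.

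For any category the smallest unadjusted p values were those of PKD2 (0.0097), DYNC2LI1 (0.0146) and PDE6D (0.0162), and for the trend those of GAS1 (slope 0.12 ± 0.04), BOC (-0.13 ± 0.05) and ADCY3 (-0.08 ± 0.04), the adenylyl cyclase of neuronal cilia. By cohort they were DYNC2LI1, HHIP and TTC30B, and in cohort 4 minus 7a they included TTC30B (0.41 ± 0.12) and HHIP (0.54 ± 0.20). None of these passed adjustment.

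In libraries 1 to 8 against the rest, 14 of 82 of these genes passed, 9 higher and 5 lower, beside 15.5% of all genes (6.36% higher, 9.18% lower). They were led by WDR34, an intermediate chain of the retrograde dynein (-0.57 ± 0.10 log2 units, adjusted p = 0.000431), ANKRD26 of the distal appendages (0.31 ± 0.08, 0.00475) and the somatostatin receptor SSTR3 (-0.44 ± 0.11, 0.00583). By list, 5 of 18 basal body genes were higher and 1 lower, 3 of 16 IFT and motor genes were higher and 1 lower, and 1 of 16 hedgehog genes was higher. Of the 10 receptor and cyclase genes of neuronal cilia 3 were lower. No further transition zone gene (0 of 12) and no BBSome partner (0 of 10) passed with limma.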

How the data were processed

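Area 32 RNA was made into ribosomal RNA depleted, strand-keeping libraries and sequenced, per the labels' protocols. The labels speak of 31 animals, 1 of them removed by the authors as an outlier. The deposited tables hold 15521 genes and 156345 exons as a normalized signal: read sums that the authors scaled to a common upper quartile. The submitters' processing notes name CASAVA, FastQC, STAR 2.3.0e and edgeR; the sources used here name no genome build, annotation, counting program or strand setting. Whole reads came back once every value was divided by what 1 read is worth in its library (100% of gene values within 0.01 of a whole), which was 0.656 to 2.07 normalized reads.

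Groups, cohorts and library numbers came from the labels. limma 3.58.1 in R 4.3.3 (lmFit, eBayes with a trend) was run on log2(normalized reads + 1) of all 30 libraries for the 12935 genes that reach 10 normalized reads in 6 or more libraries, with category and cohort as terms and Benjamini-Hochberg adjustment over all genes at 0.05. Differences are limma estimates ± SE, of which the log2(value + 1) scale understates those of low genes. Exons had at least 5 normalized reads in 6 libraries. edgeR 4.0.16 with TMM factors ran on recovered reads. The script was tested on simulated data with an equal dispersion for all genes and no cohort effects. That checks the code and does not show its power for differences as small as those given here. Figures used matplotlib 3.10.9.

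The cilium genes, the other lists and the library split were chosen with earlier results of these data known. Named are DZIP1 and TMEM107 in every comparison, the 4 cilium genes with the smallest p in each direction (4 in all for tests over several groups), and 3 genes of the wider list, of which 1 in the contrast of cohorts 4 and 7a is not reported here. Exons beyond TMEM107 and other genes or values given for single members were chosen after their values were seen. Alternatives were other pseudocounts, filters, scalings, terms, weights, exon choices and left-out libraries; the restriction to libraries 9 and up was added after seeing the data.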

Additional observations from a re-analysis of the deposited data

Results flagged for a closer look

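Within the 4 drinking categories, 100 groups of values (25 of the 39 cilium genes in each category) were searched by Dixon's test at 95%. The search was for a library far from the others of its group. For genes chosen without their values known, chance would meet it in about 1 of 20 groups, or 5 of 100. The cilium genes were chosen with earlier results of these data known, so that number is no yardstick here. The test was met 5 times, which serves as a description. TMEM107 met it in BD replicate 1, library 4, at 651 normalized reads against 226 in the next BD library, and in LD replicate 1, library 8, at 599.9 against 210.0 in the next LD library. Both are among the libraries numbered 1 to 8, each the only such library of its category. These TMEM107 hits therefore repeat the split by library number. LD replicate 1 also stood apart in IFT80, at 1003 normalized reads against 735 in the next. B9D1 was lowest in LD replicate 3, library 15, at 74.5 against 97.4. IFT74 was lowest in BD replicate 2, library 10, at 164 against 246.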

How the results depend on the processing

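Over 1449 alternative values that do not leave out single libraries, 12 changed direction, all for single genes, and 25 counts moved by more than 1.5 times. The cause was not tested except where the setting itself removes reads or libraries. TMEM107 turned without its longest exon, to -0.0324 (HD), -0.149 (BD), 0.152 (cohort 4 minus 7a) and -0.536 (libraries 1 to 8); with libraries 9 and up, to -0.0172 (BD) and 0.13 (cohorts); and for the cohorts with a term for libraries 1 to 8 (0.0812) or for 4 sets of numbers (0.10). B9D2 turned within cohort 7a (0.0124, VHD), DZIP1 and TCTN1 within cohort 4 (-0.0934 and -0.0481, BD), and DZIP1 without the cohort term (-0.0306, libraries 1 to 8). The counts that follow are given without the share of all genes under each setting. They show how the counts moved and do not set the cilium genes against genes at large. Adjusted calls of cilium genes for libraries 1 to 8 were 5 with array weights, 8 with a depth term, and 6 without the cohort or the category term. They were 1 for cohort 4 minus 7a without the category term. Counts at an unadjusted p under 0.05 moved to 3 for VHD within cohort 7a. For HD they were 6 with array weights, 5 with a depth term, 0 with a term for libraries 1 to 8 and 1 with 4 sets. For BD they were 4 with array weights, 0 without the 6 shallowest libraries, and 1 with a minimum of 100, a depth term, 4 sets, or libraries 9 and up. For any category they were 12 with array weights, 1 without shallow libraries and 4 with a depth term. For the trend they were 9 with array weights and 9 without the cohort term. For any cohort they were 2 without shallow libraries, 2 with libraries 9 and up and 7 without the category term. For libraries 1 to 8 they were 17 with a depth term. Leaving out each library in turn gave 3 to 6 (VHD), 1 to 8 (HD), 0 to 3 (BD), 1 to 10 (any category), 4 to 8 (trend) and 2 to 7 (any cohort) at an unadjusted p. It gave 1 (without LD replicate 1) to 5 (without VHD replicate 5) adjusted calls for libraries 1 to 8, and TMEM107 in BD ranged from -0.0928 (without BD replicate 1) to 0.443 (without BD replicate 4). DZIP1 in VHD kept its sign at 0.38 to 0.47 under each left-out library, and TMEM107 in libraries 1 to 8 at 1.51 to 1.66 with its adjusted call. DZIP1L, B9D2 and TMEM216 hold few reads, which limits their precision. No paired analysis was possible because the replicate numbers were given in accession order and name animals without pairing them.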
